A study of Mus musculus with 4 samples.

Results

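Ly6a, Ly6c1, Ly6d and Ly6e encode small surface proteins of the Ly6 family, and their RNA was followed in mouse liver cells with and without the RNA exonuclease PNPase. The 4 genes were chosen by name with their measured HepKO over WT ratios known, so those ratios are given below as a description, with no test. Each gene had 1 probe, found through the RefSeq accession that the scanner files give for it, and these are 4 of the 16358 named genes with a probe.

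Ly6 proteins are short, cysteine-rich proteins that fold into a compact domain held by disulfide bonds and sit on the outer face of the cell membrane on a glycosylphosphatidylinositol (GPI) anchor. Their genes lie together in a cluster, and the wider family includes the urokinase receptor (uPAR) and the complement inhibitor CD59. Ly6a, also called Sca-1, marks blood stem cells and is also carried by endothelial cells and lymphocytes. Ly6c1 encodes a form of Ly6C, a marker of monocytes and endothelium, Ly6d (ThB) is known from B lymphocyte precursors and stratified epithelia, and Ly6e (Sca-2) is a widely expressed protein that alters the entry of several viruses. Ly6a, Ly6c1 and Ly6e are known to be induced by interferon.

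HepKO mice carried Pnpt1 fl/fl and 1 Albumin-Cre allele, which recombines in hepatocytes, and their WT littermates carried Pnpt1 fl/fl without Cre, all on C57BL/6J. A pair labelled male was 12.29 weeks old by the sample characteristics (12.9 weeks in another label), and a pair labelled female was 4.29 weeks old. Each pair was 1 HepKO and 1 WT mouse, hybridised together on 2 two-colour arrays with the dyes exchanged, with HepKO in Cy5 on replicate 1 and in Cy3 on replicate 2. The 2 arrays of a pair share their RNA and count as 1 replicate, so that n = 2 pairs. RNA came from cells pelleted after collagenase perfusion, with no sort for hepatocytes named in the labels. In such a bulk sample, more cells of a type and more RNA per cell cannot be told apart.

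The sex-linked genes ran against the labels in both pairs: Xist was well above background in 4 of 4 channels of the pair labelled male and in 0 of 4 of the pair labelled female, while Ddx3y, Eif2s3y and Kdm5d were above in 0 of 4 and 4 of 4. Every ratio here is taken within a pair and uses no sex label, and the pairs keep their labelled names. All 18 hepatocyte markers with a probe were measured above background, with Alb above it in both genotypes on 4 of 4 arrays. Of the 2 Pnpt1 probes, A_51_P453343 had a mean log2 ratio of -0.10 and A_52_P229271 one of -0.52. Whether either lies in the deleted part is unknown here, so neither checks the genotype. Between 48.2% and 58.6% of probes were well above background, depending on array and genotype.

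Promoter sequence was at hand for 1 of the 4 genes, Ly6c1. It is shown because Ly6c1 had the largest difference between the pairs, and because interferon acts on genes through short promoter motifs. The stretch below is RefSeq's, on the minus strand of GRCm38.p6 at chr15:75048921-75049087. It ends at the base before the outermost annotated start of the gene.
Ly6c1 upstream: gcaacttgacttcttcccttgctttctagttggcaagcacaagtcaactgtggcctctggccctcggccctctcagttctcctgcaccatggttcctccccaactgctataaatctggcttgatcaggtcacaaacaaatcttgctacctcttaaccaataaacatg
Capitals would mark a match to the interferon regulatory factor core AANNGAAA or to the interferon-gamma-activated element TTCNNNGAA on either strand, and this stretch holds neither. Nor did the full 250 bases before each of the gene's starts in the table. Among all 32851 promoters of that length, 21.3% held the first motif and 7.02% the second. Counted by gene, with any promoter of a gene, the shares were 23.9% and 8.13% of 27025 genes. Of the 39 interferon-stimulated genes of the list below with a promoter in the table, 22 (56.4%) held the first and 9 (23.1%) the second. Absence of these letters says nothing of sites elsewhere.

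Ly6d had the largest difference of the 4. Its normalized signal in HepKO was 9820 (replicate 1) and 11483 (replicate 2) for the male pair, with 12969 and 14907 for the female pair. In WT the male pair had 166 and 552, the female pair 213 and 564. The genotypes did not come near each other on any array. The log2 HepKO over WT ratio was 5.89, 4.38, 5.93 and 4.73 on the 4 arrays in that order, with a mean of 5.23 ± 0.14 (SD, n = 2 pairs), or 37.5-fold. Signals are in arbitrary units, carry the offset of 50 added after background correction, and are not comparable between probes. That offset is a large part of a dim signal, and it makes the ratio of a gene that is dim in WT too small.

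Ly6a, the stem cell and endothelial antigen, followed at 23.8-fold. Its HepKO signals were 8616 and 8569 for the male pair, with 4789 and 4354 for the female pair. The WT signals were 153 and 403, then 228 and 342. The HepKO mouse of the male pair thus stood above that of the female pair, while the WT signals of the pairs overlapped. The male pair had log2 ratios of 5.82 and 4.41, the female pair 4.39 and 3.67, with a mean of 4.57 ± 0.77 (SD, n = 2 pairs).

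Ly6c1, the Ly6C gene, varied most between the pairs. HepKO signals were 2862 and 2840 for the male pair but 647 and 571 for the female pair. In WT the male pair had 97 and 281, the female pair 83 and 105. The lowest HepKO value, of the female pair, still lay above the highest WT value, of the male pair. The male pair had log2 ratios of 4.88 and 3.33, the female pair 2.96 and 2.44, with a mean of 3.40 ± 0.99 (SD, n = 2 pairs), or 10.6-fold. The Feature Extraction log ratios, which carry no offset, gave a mean of 4.49. On the log2 scale the HepKO level of the male pair exceeded that of the female pair by 2.23, and the WT level by 0.82. With 1 mouse of each genotype per pair these differences were not tested, and a pair's age, sex and slide all change together and cannot be told apart. Ly6c2, the near-identical neighbour of Ly6c1, had no named probe, and how far the Ly6c1 probe also reads its RNA was not tested.

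Ly6e was bright in both genotypes and had the smallest ratio of the 4. HepKO signals were 52719 and 53178 for the male pair, with 47944 and 46865 for the female pair. The WT signals were 5263 and 8329, then 5957 and 8443. The pairs were close to each other in both genotypes. The male pair had log2 ratios of 3.32 and 2.67, the female pair 3.01 and 2.47, with a mean of 2.87 ± 0.18 (SD, n = 2 pairs), or 7.31-fold. No spot of the 4 probes was flagged as an outlier or saturated on any array, and each was well above background in both genotypes on 4 of 4 arrays.

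**Figure D1:**
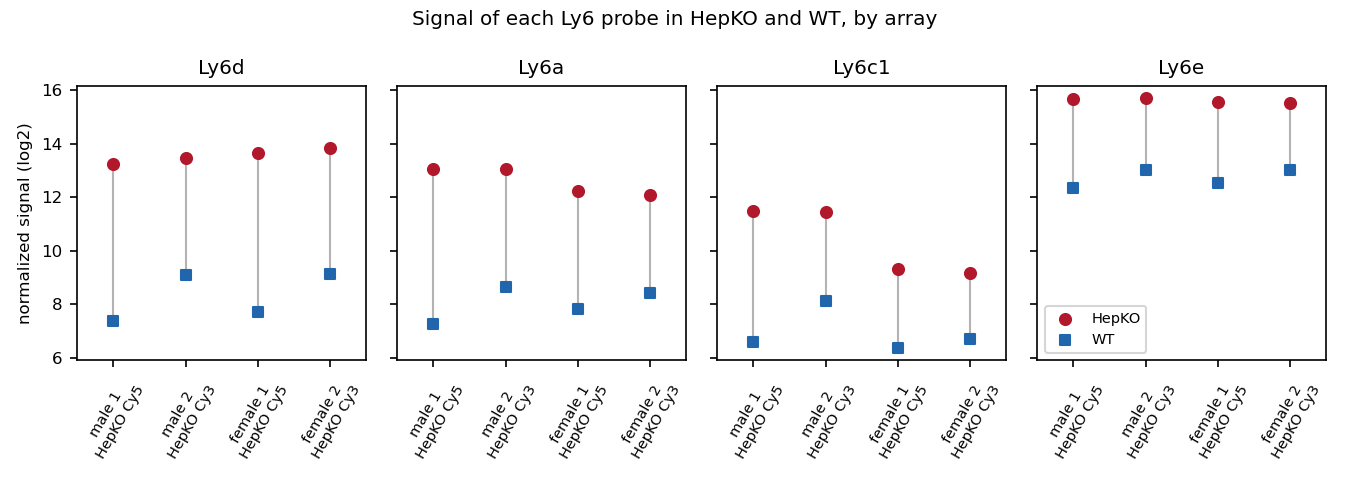
Normalized signal (log2, vertical axis) of the 4 probes on each array, with HepKO as red circles, WT as blue squares and a grey line joining the values of 1 array; heights are not comparable between genes. HepKO lies above WT on every array, Ly6c1 is lower in HepKO in the female pair, and the WT points of replicate 2 (WT in Cy5) lie above those of replicate 1.

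The size of each ratio differed between the 2 arrays of a pair, on which the dyes were exchanged. With 1 array of each dye orientation per pair, dye and array cannot be told apart. In the male pair the WT signal was higher on replicate 2, where WT was in Cy5, than on replicate 1 by 1.74 for Ly6d, 1.53 for Ly6c1, 1.40 for Ly6a and 0.66 for Ly6e on the log2 scale. In the female pair these differences were 1.41, 0.34, 0.59 and 0.50. The HepKO signals of the same arrays differed by at most 0.23 between replicates 1 and 2. These are signals after normalization. Before it, Ly6d in the male pair had 8789 and 12319 in HepKO, and 166 and 415 in WT. The ratio was therefore larger on replicate 1 for each of the 4 genes in both pairs. This was common among strongly raised genes: of the 130 genes with a mean ratio at least that of Ly6e, 121 had the larger value on replicate 1 of the male pair and 120 on that of the female pair. Their WT signal was higher on replicate 2 by a median of 0.66 and 0.34. The average of both dye orientations, used here as the value of a pair, lies between those of the single orientations. For Ly6d that span is 4.55 with HepKO in Cy3 alone to 5.91 with HepKO in Cy5 alone.

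Over all 11509 named genes measured, the limma test across the 2 pairs called 1379 higher in HepKO (12.0%) and 427 lower (3.71%) at an adjusted p under 0.05, and the median log2 ratio was 0.083. The 4 Ly6 genes were higher on 4 of 4 arrays, but since they were chosen on this contrast nothing is read from that count. By mean ratio, Ly6d was 10th of the 11509 genes, Ly6a 21st, Ly6c1 63rd and Ly6e 130th. Within the pairs the ranks were 21 and 5 for Ly6d in the male and female pair, 22 and 30 for Ly6a, 55 and 127 for Ly6c1, and 195 and 120 for Ly6e. By pair mean rather than rank, Ly6d was the only one of the 4 with a larger ratio in the female pair. Of the genes called higher, 70.2% had the larger ratio in the male pair. The Ly6d pair means of 5.13 and 5.33 differed by -0.19, male minus female, against 1.08 for Ly6a, 1.41 for Ly6c1 and 0.26 for Ly6e. That Ly6d difference was small beside those between its 2 arrays, 1.51 in the male pair and 1.20 in the female pair. The counts over all genes, and with them every call below, ended in limma without the filter on dim probes (0 genes, 4638 at an unadjusted p under 0.05) and with the background model fitted on all spots (0 genes, 3027 unadjusted).

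**Figure D2:**
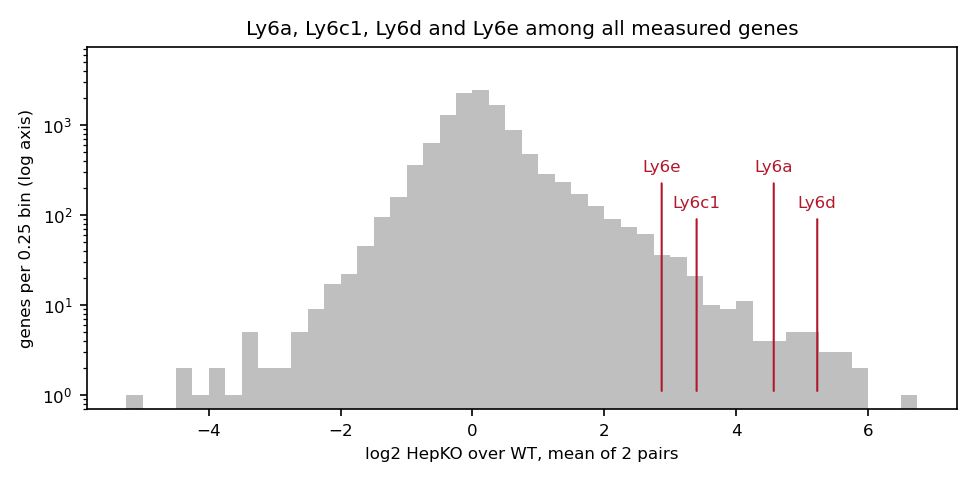
Number of genes (vertical log axis) by mean log2 HepKO over WT of 2 pairs (horizontal axis, bins of 0.25) for all 11509 genes measured, with red lines at the 4 Ly6 genes. Ly6e, Ly6c1, Ly6a and Ly6d lie at 2.87, 3.40, 4.57 and 5.23, in the thin right tail of the distribution.

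The wider Ly6 and uPAR family moved in both directions. Of 42 other family genes listed, 32 had a named probe and 13 were measured above background. Of these 4 rose (30.8%, beside 12.0% of all genes), 2 fell (15.4%, beside 3.71%) and 7 did not pass. Their median was 0.22, against 0.083 over all genes, and the differences between these shares were not tested. Values are log2 HepKO over WT ± the moderated SE of limma, with adjusted p from the same model. Plaur, the urokinase receptor, rose by 1.57 ± 0.25 (adjusted p = 0.0309), with array values of 2.39 and 1.59 (male pair), 1.31 and 1.00 (female pair). A second Plaur probe also averaged 1.57. The Plaur call ended when male pair replicate 2 or female pair replicate 1 was left out, where the highest adjusted p was 0.0567.

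Ly6i, a close relative of Ly6a and Ly6c1, rose by 1.45 ± 0.24 (adjusted p = 0.0322), with 1.83 (male pair) and 1.07 (female pair). Gpihbp1, which carries lipoprotein lipase across capillary endothelium, rose by 1.36 ± 0.20 (adjusted p = 0.0276), with the larger value, 1.65, in the female pair. Lynx1, a modulator of nicotinic acetylcholine receptors, rose by 1.16 ± 0.14 (adjusted p = 0.0208) with values from 1.11 to 1.22 on the 4 arrays. These sizes are below those of the 4 Ly6 genes, whose lowest single array value was 2.44. The 4 were chosen with their ratios known, so nothing is read from that difference.

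The members that fell were both forms of CD59, the GPI-anchored inhibitor of the complement membrane attack complex. Cd59a was lower at -1.57 ± 0.20 (adjusted p = 0.0218), with array values of -2.07 and -1.63 (male pair), -1.33 and -1.23 (female pair), and its second probe averaged -1.24. Cd59b was lower at -1.32 ± 0.18 (adjusted p = 0.0248), and its second probe, not measured above background, averaged -0.35. The 2 genes are close paralogs, and how far their probes share RNA was not tested. With the Feature Extraction log ratios Cd59b was at -2.54, Plaur at 2.44 and Lynx1 at 2.24, each over 1.5 times its value here.

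Among the genes that did not pass, Ly6f had 1.22 and 0.91 in the male pair but 0.28 and 0.13 in the female pair, with a mean of 0.64 ± 0.26 (adjusted p = 0.162). Its signal was above background in WT on 1 of 4 arrays. With the Feature Extraction log ratios it was at 2.68 and passed in limma (adjusted p = 0.0124). Ly6g6e was at 0.26 ± 0.16, Spaca4 at -0.23 ± 0.15 and Cd177, a neutrophil antigen, at 0.22 ± 0.17, and none of them passed. With the Feature Extraction log ratios Ly6g6e was at 1.03 and Cd177 at 1.92, neither passing. Of the 19 family genes with a probe that were not measured, 17 were above background on no array in either genotype.

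**Figure D3:**
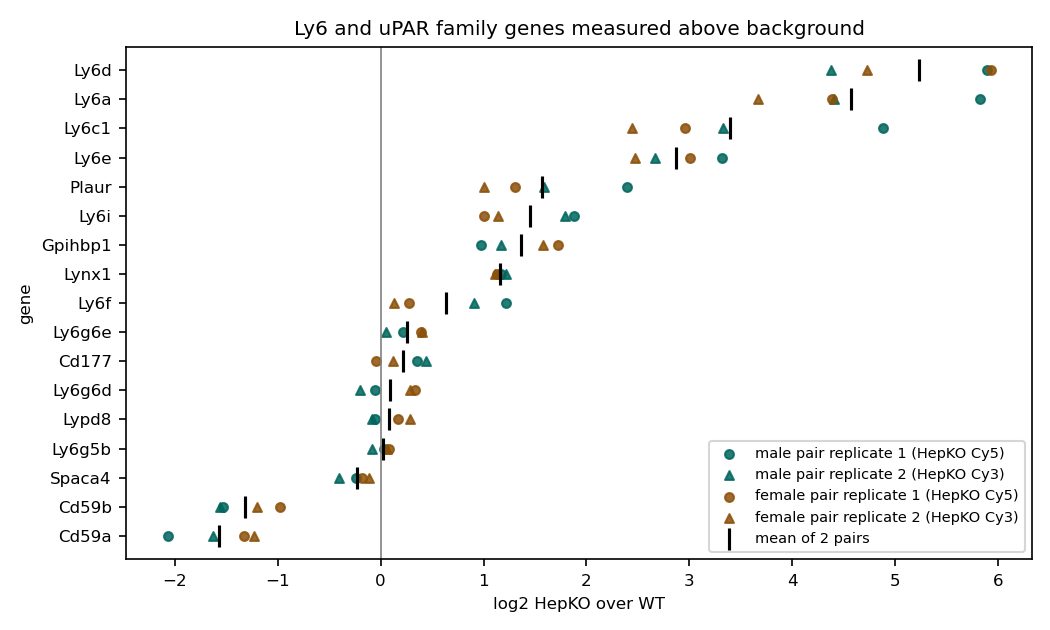
Log2 HepKO over WT (horizontal axis) on each of the 4 arrays for Ly6a, Ly6c1, Ly6d, Ly6e and the 13 other Ly6 and uPAR family genes measured, with circles for HepKO in Cy5, triangles for HepKO in Cy3, green for the male and brown for the female pair, and a black bar at the mean of 2 pairs. The 4 Ly6 genes occupy the right, from 2.44 to 5.93, and Cd59a and Cd59b the left, at -0.98 or lower.

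The 4 genes lie on chromosome 15 in a cluster bounded, among the family genes listed, by Psca and Gpihbp1, which holds 26 genes with a proper name, 16 of them with a probe. Ly6e, Ly6i, Ly6a and Ly6c1 are consecutive named genes there, while Ly6d lies 8 places before Ly6e. The probes of Ly6k, Gml2, Cyp11b2 and Ly6m, between Ly6d and Ly6e, and those of Psca, Them6, Slurp1 and Ly6h, elsewhere in the cluster, were not measured above background. Their ratios, near 0, therefore say nothing of these genes. Of the 12 other genes with a probe, 4 were measured, and Lynx1, Ly6i and Gpihbp1 rose while Ly6f did not pass. These 4 are the same genes as in the family counts above, and 12.0% of all genes were called higher. Lynx1, next to Ly6d among genes with a probe, was at 1.16 where Ly6d was at 5.23. Named genes of the cluster without a probe here include Ly6c2 and Ly6g, and they were not analysed here.

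**Figure D4:**
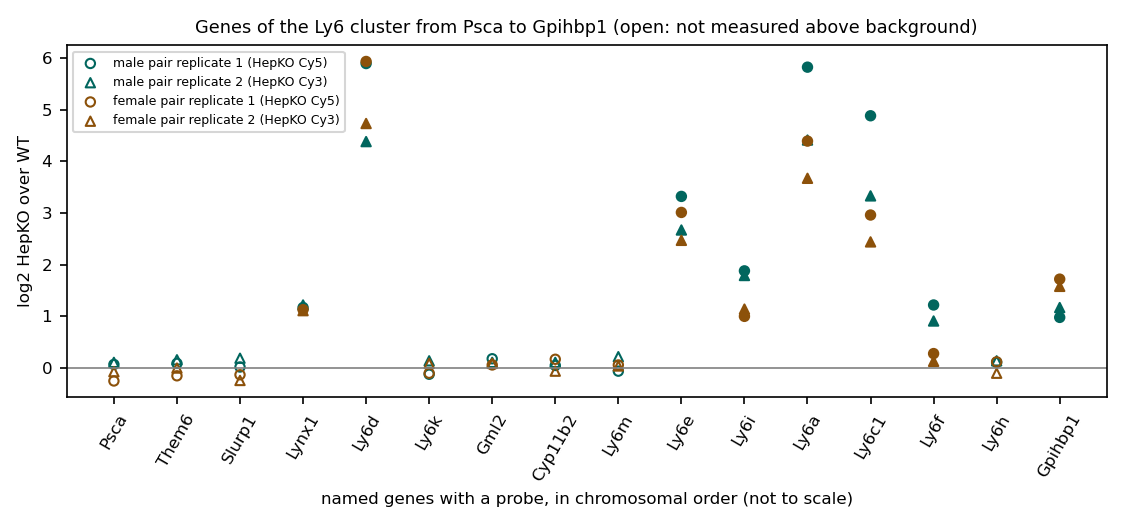
Log2 HepKO over WT (vertical axis) on the 4 arrays for the 16 named genes of the Ly6 cluster with a probe, in chromosomal order and not to scale, with open symbols for genes not measured above background. Ly6d, Ly6e, Ly6a and Ly6c1, which were chosen with their ratios known, stand above their neighbours. Among the other measured genes Lynx1, Ly6i, Gpihbp1 and Ly6f are also above 0 on all arrays.

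Genes for the enzymes that build and attach the GPI anchor were counted beside all genes. Of 30 measured genes of GPI anchor synthesis, attachment and remodelling, 2 rose, none fell and 28 did not pass, with a median of -0.02. Pgap2, which remodels the anchor's lipid, rose by 0.81 ± 0.15 (adjusted p = 0.0387) and Pign, which modifies the anchor's sugar core, by 0.78 ± 0.14 (adjusted p = 0.039). Both calls ended with the Feature Extraction log ratios, where 1 gene of this list passed in limma. They also ended without male pair replicate 2, where 0 passed. The Pgap2 call was further lost without female pair replicate 1, and the Pign call with the mean of all kept probes and with HepKO in Cy5 alone. The share that rose was 6.67%, beside 12.0% of all genes, and none fell, beside 3.71% of all genes. The differences between these shares were not tested. Pigt, a subunit of the transamidase that attaches the anchor, was at 0.80 ± 0.40 (adjusted p = 0.232), with 3.87 and 0.96 where HepKO was in Cy5 and -0.74 and -0.88 where it was in Cy3.

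Interferon-stimulated genes were the list closest in size to the 4 Ly6 genes. Of 46 measured, none of them a Ly6 gene, 44 rose (95.7%, beside 12.0% of all genes) and none fell (beside 3.71%). Their median was 3.16, or 3.63 (male pair) and 2.72 (female pair). Rsad2 (6.71 ± 0.42), Cxcl10 (5.96 ± 0.65) and Ifit1 (5.29 ± 0.36) had the largest values. Ly6a and Ly6d lay above that median in both pairs. In the female pair Ly6c1 (2.70) and Ly6e (2.74) lay close to it, while in the male pair Ly6c1 (4.11) was above it and Ly6e below it. Of 16 genes for interferon receptors and their signalling, 9 rose (56.2%) and none fell (median 1.00). The number rising was 4 without male pair replicate 2 and 4 without female pair replicate 1. Usp18, a brake on type I interferon signalling, rose by 4.56 ± 0.42 and the inhibitor Socs1 by 2.92 ± 0.54 (adjusted p = 0.0413). The Socs1 call ended when male pair replicate 2 or female pair replicate 1 was left out, where the highest adjusted p was 0.0642.

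Markers of other cells, among them the blood and vessel cells known to carry Ly6 proteins, were counted in the same way, to be read against the 12.0% of all genes called higher and the 3.71% called lower. Of 9 measured B lymphocyte markers, 2 rose (22.2%), none fell and 7 did not pass (median 0.27). Their summed signal was 1529 to 2143 in HepKO and 716 to 899 in WT over the 4 arrays. Signals are not comparable between probes, so this sum and those below lean on the brightest probes and do not measure cell numbers. Blnk, an adaptor of the B cell receptor, rose by 2.59 ± 0.31 and Cd79b by 0.92 ± 0.15 (adjusted p = 0.0304, lost without male pair replicate 2 at 0.0509), while Cd22 was at 0.71 ± 0.19 (adjusted p = 0.079). Cd79a, Pax5, Ebf1, Fcer2a, Rag1 and Blk were above background on no array in either genotype.

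Monocyte markers, of cells known to carry Ly6C, had 6 of 11 measured genes higher and none lower (median 1.62). The pair medians were 2.22 (male) and 1.04 (female), beside 4.11 and 2.70 for Ly6c1. Their summed signal was 92874 to 103279 in HepKO and 76615 to 82739 in WT. Plac8 (4.07 ± 0.34), the IgG receptor Fcgr1 (3.28 ± 0.40) and Ms4a4c (3.14 ± 0.23) had the largest values. The list also includes F10 and Fn1, and from which cells the RNA of these markers came was not tested. How far their values reflect monocytes, other cells or interferon was not tested either.

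Endothelial markers, of cells that carry Ly6a and Ly6C, had 13 of 19 higher and none lower (median 1.16), with a summed signal of 24227 to 26234 in HepKO and 9671 to 13722 in WT. The surface sialomucin Cd34 (2.61 ± 0.19), the hyaluronan receptor Lyve1 (2.07 ± 0.16) and Egfl7 (1.88 ± 0.18) led them, and Erg was above background on no array. Of 11 haematopoietic progenitor markers, 4 rose and none were called lower (median 0.64, lowest value -0.75). Their summed signal was 2451 to 2736 in HepKO and 1648 to 1801 in WT. Cd34 led these too, with Cd48 (1.81 ± 0.20) and the transcription factor Spi1 (1.40 ± 0.26, adjusted p = 0.0423) behind it. The Spi1 call was lost when male pair replicate 2 or female pair replicate 1 was left out, and with the Feature Extraction log ratios. Slamf1, Mecom, Myb and Hoxa9 were above background on no array.

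Macrophage markers had 13 of 15 higher and none called lower (median 1.80, lowest value -0.75). Their summed signal was 97322 to 100080 in HepKO against 11188 to 27358 in WT. The genotypes did not overlap in this sum, nor in that of any other cell list except the erythroid and hepatocyte lists. The scavenger receptor Marco rose by 4.26 ± 0.29, the protease Ctss by 3.26 ± 0.50 (lost without female pair replicate 1 at an adjusted p of 0.0503) and the lysozyme Lyz2 by 2.38 ± 0.48 (adjusted p = 0.048, lost when male pair replicate 2 or female pair replicate 1 was left out, and with the Feature Extraction log ratios). T and NK cell markers had 9 of 17 higher and none called lower, with a median of 0.92 and a lowest value of -1.29. Their summed signal was 3699 to 4797 in HepKO and 2232 to 3261 in WT. Gzmb (2.83 ± 0.35), Nkg7 (2.20 ± 0.19) and Cd8b1 (1.94 ± 0.18) had the largest changes. Cd8b1 was well above background in WT on only 1 of 4 arrays. Neutrophil markers had 3 of 12 higher and none lower (median 0.86; 2553 to 5211 and 938 to 1197). S100a9 rose by 3.21 ± 0.18 and S100a8 by 1.21 ± 0.20 (lost when male pair replicate 2 or female pair replicate 1 was left out), and Mpo, at 1.77 ± 0.49, did not pass (adjusted p = 0.0859), though it did in limma with the Feature Extraction log ratios (3.80, adjusted p = 0.0185). Those ratios were also over 1.5 times as large for Cd8b1 (4.38), Cd34 (4.30), Cd48 (2.73), S100a8 (2.71), Spi1 (3.05), Cd22 (1.95) and Cd79b (1.54).

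Cholangiocyte and progenitor markers had 3 of 9 higher and none lower (median 0.98; summed signal 5268 to 8904 in HepKO and 1978 to 2681 in WT), with Spp1 at 3.96 ± 0.40, Bicc1 at 3.39 ± 0.17 and Cd24a at 1.51 ± 0.18. Cd24a was well above background in WT on only 1 of 4 arrays. Stellate cell and fibroblast markers had 6 of 15 higher and none lower (median 0.74; 18767 to 21599 and 10334 to 11281), led by Col3a1 (2.14 ± 0.33, lost without male pair replicate 2), Col1a2 (1.62 ± 0.22) and Col1a1 (1.45 ± 0.20). Of 5 erythroid markers 1 rose, Hba-a1 (3.27 ± 0.16), and 1 fell, Alas2 (-0.90 ± 0.14, lost without male pair replicate 2), while Klf1 was at -1.02 ± 0.23 (adjusted p = 0.0566). With the Feature Extraction log ratios Klf1 passed in limma (-2.65, adjusted p = 0.0386), and Cd24a was at 3.95 and Col1a1 at 3.40. The summed signal of the erythroid markers overlapped between the genotypes, at 2754 to 10687 in HepKO and 1989 to 8647 in WT. Of 18 hepatocyte markers none rose and 2 fell (11.1%, beside 3.71% of all genes; median -0.21; 1109910 to 1633889 and 1316651 to 1826998). Cyp2e1, a cytochrome P450, was lower at -2.38 ± 0.30 and the apolipoprotein gene Apoa2 at -1.42 ± 0.15, and the clotting factor F9, at -0.79 ± 0.22, did not pass (adjusted p = 0.0893). The part that a changed cell makeup has in the Ly6 ratios was not tested.

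**Figure D5:**
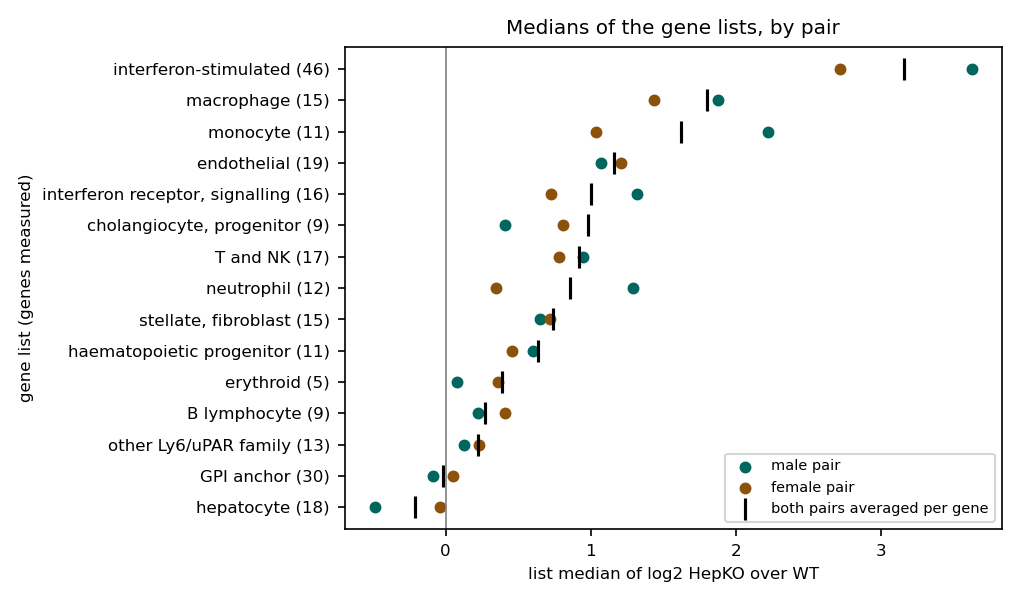
Median log2 HepKO over WT (horizontal axis) of each gene list in the male pair (green) and the female pair (brown), with a black bar for the median over genes of the mean of both pairs and the number of genes measured in brackets. Interferon-stimulated genes lie highest, at 3.16, followed by macrophage markers at 1.80 and monocyte markers at 1.62, while GPI anchor genes lie at -0.02.

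Likeness to other genes was measured as the size of the difference in log2 ratio on each array. As the mean absolute difference of the log2 ratios over the 4 arrays, which form 2 pairs, the closest of them were Ly6c1 and Ly6e at 0.57 and the farthest Ly6d and Ly6e at 2.36. Among all measured genes, those most like Ly6a by this measure were Oas2 (0.18), Phf11a (0.21) and Slpi (0.29). Ccrl2 (0.19), Fcgr1 (0.21) and Cd52 (0.23) were most like Ly6c1. For Ly6d they were Cdc20 (0.29), Oasl2 (0.40) and Oas1f (0.40), and for Ly6e Ifi27 (0.08), Cdkn1a (0.10) and Tubb6 (0.14). Fcgr1 stood at 4.04 (male pair) and 2.52 (female pair), against 4.11 and 2.70 for Ly6c1. Cdc20 was at 4.72 and 5.39, and like Ly6d it had the larger value in the female pair.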

How the data were processed

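RNA from 4 mice was measured on 4 two-colour Agilent arrays. Agilent Feature Extraction 10.2.1.3 produced the deposited files, per the file headers. Each deposited intensity is a spot's mean pixel brightness beside its median local background, with nothing subtracted. The software's own deposited log10 ratios, which include its background subtraction and dye correction, served as an alternative. The authors' value table holds the same log10 ratios, turned to HepKO over WT: its columns correlated at 1 or -1 with those of the scanner files, and its median was 0 in each column. Other steps by the authors are not given in the sources used here.

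Intensities were corrected with normexp (offset 50) and loess within arrays in limma 3.58.1 (R 4.3.3). Control spots (1639 of 45018) had weight 0, and 178 to 260 flagged spots per array were left out before the fit. Spots whose background alone was a population outlier were kept. Signals were made comparable between arrays with Aquantile. The 2 arrays of a pair were averaged after turning every ratio to HepKO over WT, from 1 array where the other spot was flagged. A probe was measured if well above background on both arrays of a pair in either genotype (22845 of 41174 probes). RefSeq accessions named 22951 probes through a GRCm38.p6 table, used for names and gene order. The brightest probe stood for a gene.

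The limma test (lmFit, eBayes, intercept on 2 pair values, 1 residual degree of freedom, Benjamini-Hochberg over 11509 genes) was also run on simulated data. That run used normal noise and large changes, so it does not measure power or error rates at the smaller changes given here. The number of pairs, 2, limits the precision. The 4 Ly6 genes, the lists and the tests were chosen with earlier results of these data known, so lists are given as counts and medians. Named were family and cluster genes, those passing and up to 4 others, the 3 largest changes of each other list (1 of them is not reported here) and the 3 genes most like each Ly6 gene. Alternatives covered background correction, normalization, filter, probe choice, dye orientation, a random block for the pair, and each array left out.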

Additional observations from a re-analysis of the deposited data

How the results depend on the processing

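The 4 Ly6 ratios stayed above 0 in all 16 alternatives, from 4.04 to 5.10 for Ly6a, 2.89 to 4.49 for Ly6c1, 4.55 to 5.91 for Ly6d and 2.57 to 3.17 for Ly6e. Shifts over 1 SD of the pairs came with the Feature Extraction log ratios and, equally, the authors' value table (Ly6c1 4.49, Ly6d 5.45), with normexp fitted on all spots (Ly6d 5.04), with median centring (Ly6e 2.58, where the median of all genes was 0.18), with HepKO in Cy5 alone (Ly6d 5.91, Ly6e 3.17) and with HepKO in Cy3 alone (Ly6d 4.55, Ly6e 2.57). Leaving out 1 array gave 4.85 to 5.61 for Ly6d. With normexp fitted on all spots or without the filter on dim probes, limma passed 0 genes in every count given (3027 and 4638 at an unadjusted p under 0.05). The filter's absence left 16358 genes tested, and the other cause was not tested. With the 4 arrays and the pair as a random block, 2682 genes were higher and 1394 lower. HepKO in Cy3 alone gave 682 lower, and leaving out 1 array 207 to 577 lower. The GPI anchor count of 2 was 1 with the Feature Extraction log ratios, the authors' value table, the mean of all probes or HepKO in Cy5 alone, 6 with the random block (added after seeing the data for lists), and 0 to 3 without 1 array. Interferon receptor and signalling genes numbered 4 to 10 without 1 array. Pigt turned to -0.81 with HepKO in Cy3 alone and to -0.35 without male pair replicate 1 (-0.35 to 1.96 over the arrays left out). Leaving out spots with a background population flag, an alternative added after seeing the data, gave 1257 genes higher and 359 lower. HepKO and WT were compared within each pair throughout.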
